A study of Mus musculus with 4 samples.

Results

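PT-S3-2 is the cluster of kidney nuclei that the authors named for the third, straight segment of the proximal tubule and set apart from a second cluster of that name, PT-S3-1. Its members were taken by that name, as the deposited average profile of PT-S3-2 in a table of 17 clusters, and no deposited fold change or p-value was used. The profile held at least 1 unique molecular identifier (UMI, 1 counted RNA molecule) for 18133 of the 24468 genes listed, and 3657857 UMIs, 10.1% of those in the 17 clusters. All kidneys came from male C57BL/6 mice, with no age stated in the labels. Cis9w mice were injected weekly with 8 mg/kg cisplatin, 4 times in all, and their kidneys were collected 9 weeks after injections began. Cisplatin is an anticancer platinum compound to which proximal tubule cells are sensitive. CT9w mice were untreated. Each group had 2 samples, 4 in all, and single-nucleus RNA from the cortex and outer medulla was read with a droplet 3′ assay. Each cluster profile is 1 pool whose columns name no sample. Neither its number of nuclei nor the share of each group in it is stated in the labels or headers, so no spread between animals could be computed.

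The proximal tubule reclaims most of what the glomerulus filters. Its early part takes up glucose, phosphate, amino acids and proteins. Its last part, which descends into the outer medulla, is rich in peroxisomes, drug-metabolising enzymes and glutathione synthesis. In rodents this last part differs between the sexes, with transporters and enzymes that follow androgens and growth hormone. Levels below are averages in normalised UMIs per nucleus. Brackets after a ratio hold a 95% Clopper-Pearson interval that covers the counting error of the UMIs and nothing else. The clusters were made from these genes, so every contrast between clusters is a description with no test.

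Each of the 6 markers had its highest level of the 17 clusters in PT-S3-2, and they fell into a pair of patterns. Slc7a13, the transporter for aspartate and glutamate of the late proximal tubule, averaged 0.0567 in PT-S1, 0.181 in PT-S2, 2.21 in PT-S2/S3, 4.797 in PT-S3-1 and 5.08 in PT-S3-2. Cyp7b1, an oxysterol 7-alpha-hydroxylase, averaged 0.0193, 0.0244, 0.133, 4.29 and 4.76 in the same order, with its highest level outside the proximal tubule, 1.24, in the principal cell cluster PC. Both were near their PT-S3-2 level already in PT-S3-1, with PT-S3-2 over PT-S3-1 ratios of 1.06 [1.02 to 1.10] and 1.11 [1.06 to 1.16]. Acsm3, a medium-chain acyl-CoA synthetase, was alike, at 0.745 in PT-S3-2 against 0.713 in PT-S3-1 and 0.0107 in PT-S1. Aadat, the aminotransferase that acts on kynurenine and aminoadipate, averaged 2.16 in PT-S3-2, against 1.54 in PT-S3-1 and 0.0985 in PT-S1, a ratio over PT-S3-1 of 1.40. The other two markers set PT-S3-2 apart from PT-S3-1. Slc7a12, a transporter of small neutral amino acids, averaged 0.0107 in PT-S1, 0.0103 in PT-S2, 0.0581 in PT-S2/S3, 0.526 in PT-S3-1 and 1.98 in PT-S3-2, a ratio over PT-S3-1 of 3.76 [3.36 to 4.20]. Prlr, the prolactin receptor, averaged 0.0674, 0.0549, 0.113, 0.352 and 1.77 in that order, a ratio over PT-S3-1 of 5.03 [4.41 to 5.77]. In the cluster named PT-injury/repair, Slc7a12 was at 0.385, above its level in PT-S2/S3, and Prlr at 0.0537.

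**Figure D1:**
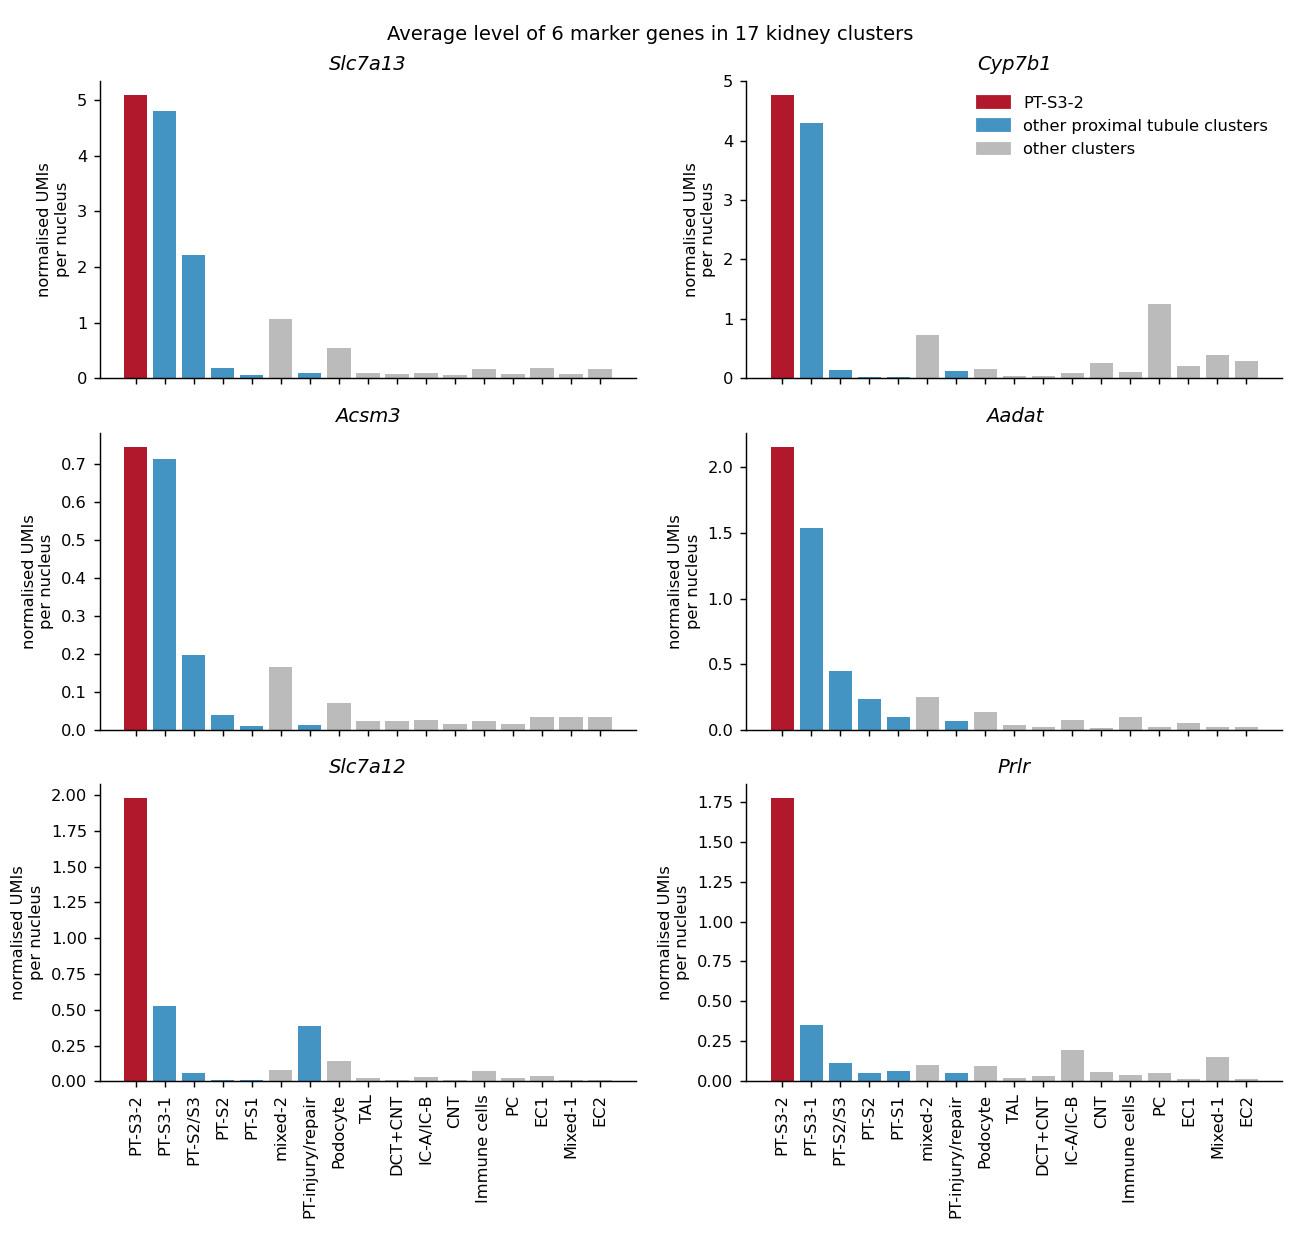
Bars give the average level (normalised UMIs per nucleus, linear axis from 0) of the 6 markers in each of the 17 clusters, with PT-S3-2 at the left and the other clusters in order of their likeness to it. Slc7a13, Cyp7b1, Acsm3 and Aadat are high in PT-S3-2 and PT-S3-1, while Prlr stands at 1.77 in PT-S3-2 and at 0.352 in PT-S3-1.

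The other segment markers went with the label. All 9 of the other third-segment markers with enough signal to compare were at least 2-fold higher in PT-S3-2 than in PT-S1. Over all genes this share was 9.59%. Of the 10 markers listed, 7 were highest of the 17 clusters in PT-S3-2, beside 9.51% of all genes ranked. At 2-fold they did not separate the S3 clusters, and neither did most genes. Of 10 compared with PT-S3-1, 0 were higher and 0 lower, beside 0.719% and 6.65% of all genes. Their median log2 ratio was 0.28. Atp11a, a phospholipid flippase of this list, averaged 5.70 in PT-S3-2, against 4.52 for PT-S3-1 and 0.144 for PT-S1. Slc5a8, a sodium-coupled monocarboxylate transporter also listed, averaged 1.20, 1.17 and 0.0182 in that order. All 8 first-segment markers were at least 2-fold lower in PT-S3-2 than in PT-S1, with a median log2 ratio of -5.45. Over all genes compared, 8.54% were lower and the median was 0.04. The glucose transporter Slc5a2 averaged 0.0181 in PT-S3-2 against 1.09 in PT-S1, and the lactate transporter Slc5a12 averaged 0.119 against 14.7. Of 16 markers of injured tubule, 13 were under 0.05 in PT-S3-2. Most genes are that low, as 5891 of the 24468 listed could be compared with PT-S1. The 16 summed to 0.623 in PT-S3-2, against 0.739 in PT-S3-1, 0.413 in PT-S1, 0.310 in PT-S2/S3 and 8.32 in PT-injury/repair. Havcr1 (kidney injury molecule) averaged 0.00494 in PT-S3-2 and 0.346 in PT-injury/repair, and Krt20 was at 0 in PT-S3-2. The exceptions were Dcdc2a (0.244 in PT-S3-2), Cdh6 (0.131) and Spp1 (0.110). Of these 3, 2 were at least 2-fold higher in PT-S3-2 than in PT-S1 and 1 lower.

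Over 6789 genes, the log2 profile of PT-S3-2 correlated most closely with PT-S3-1 (Pearson r = 0.939) and PT-S2/S3 (r = 0.932), then with PT-S2 (0.874) and PT-S1 (0.815). PT-injury/repair came at 0.666, and the endothelial cluster EC2 was lowest at 0.352. These values are across genes of pools that share libraries, and genes are not independent. PT-S3-1 and PT-S2/S3 were thus close in likeness to PT-S3-2.

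Genes were compared where the mean of both averages was at least 0.05, and a gene counted as higher or lower from 2-fold on. Against PT-S3-1, 44 of 6118 genes (0.719%) were higher in PT-S3-2 and 407 (6.65%) were lower, 451 (7.37%) in all. For rankings, a gene entered where its average in PT-S3-2 or its mean over the clusters ranked was at least 0.05. Among the 6 proximal tubule clusters, 31 of 6458 genes (0.48%) were highest in PT-S3-2 by at least 2-fold over the next, out of 1297 (20.1%) highest there by any margin. Among all 17 clusters, 23 of 7289 genes (0.316%) were highest in PT-S3-2 by at least 2-fold, out of 693 (9.51%) highest there by any margin. At the margin of that first set, Fam107a (2.04 times the next), Slc5a4a (2.04) and Gm42375 (2.03) lay just inside and Gm17494 (1.98), Gm44832 (1.97) and Mcoln2 (1.96) just outside. The next highest cluster was PT-S3-1 for 20 of the 31, PT-S2/S3 for 6, PT-injury/repair for 4 and PT-S1 for 1. Besides Prlr and Slc7a12 they held genes of several kinds. Hao2, a peroxisomal 2-hydroxy acid oxidase, averaged 0.699 in PT-S3-2, against 0.335 in PT-S2/S3 and 0.323 in PT-S3-1. Nxph1, a secreted ligand of neurexins, averaged 0.928 in PT-S3-2, against 0.353 in PT-S3-1 and 0.00259 in PT-S1. Mettl7a2, of a methyltransferase-like family, averaged 0.913 in PT-S3-2 and 0.418 in PT-S3-1. Slc5a4a, of the sodium-glucose cotransporter family, averaged 0.508 in PT-S3-2 and 0.2497 in PT-S3-1.

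Ror2 and Gm13936, among these leading genes, were higher still outside the proximal tubule. Ror2, a receptor tyrosine kinase for Wnt5a, averaged 0.258 in PT-S3-2 and 0.111 in PT-S3-1, but 0.405 in the cluster Mixed-1. Gm13936 averaged 0.288 in PT-S3-2 and 0.0647 in PT-S3-1, but 0.559 in podocytes. Tox, a transcription factor best known from T cells, averaged 0.458 in PT-S3-2, with 0.388 in the intercalated cell cluster IC-A/IC-B. Gm6614 averaged 0.381 in PT-S3-2, against 0.0993 in PT-S3-1 and 0.00556 in PT-S1, and it lies on chromosome 6 at 141971845 to 142011414 (GRCm38), between the organic anion transporters Slco1a1 and Slco1a6. Ugt1a10, at 0.192 in PT-S3-2 and 0.0376 in PT-S3-1, is annotated over 88055388 to 88219004 of chromosome 1, a span it shares with the other Ugt1a genes, so its counts may not be its own. Of the 31 genes, 9 (29.0%) were not protein-coding, against 5.47% of the genes compared. They included 1700110K17Rik at 0.357 in PT-S3-2 and 0.134 in PT-S3-1, and Gm15396 at 0.489 in PT-S3-2 and 0.205 in PT-S3-1. A gene could enter this ranking by its PT-S3-2 level alone, as the non-coding 9130024F11Rik did at 0.0620. Low genes that are high in PT-S3-2 are thus favoured, and the difference in shares was not tested. With 0.05 added to each average, the set fell from 31 to 8 genes.

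Of the 8 genes looked up (the 6 markers, Ghr and Hao2), 5 had promoters in the RefSeq table, with 8 starts in all, and the 3 starts that hold a motif searched for are shown. They belong to a third-segment marker shared by both S3 clusters (Aadat), a peroxisomal gene that leads PT-S3-2 (Hao2) and the marker with the largest ratio over PT-S3-1 (Prlr). The 5 starts with no match are 2 others of Prlr, 2 of Ghr and 1 of Acsm3. Each is a RefSeq promoter on GRCm38.p6, 250 bases before to 50 after a start, 5′ to 3′ on the strand of the gene. Motifs were searched on both strands, as TTCNNNGAA (the core bound by STAT factors, which act below the prolactin and growth hormone receptors), CAAAGTCCA (an element of the nuclear receptor HNF4) and GTTAAT (the core of an HNF1 site), and matches are in capitals. Prlr at chr15:10223656-10223955 (plus strand), a start inside the gene's annotated span, has 1 STAT core at bases 141 to 149. Aadat at chr8:60505874-60506173 (plus strand) has 1 HNF4 element at bases 179 to 187. Hao2 at chr3:98893181-98893480 (minus strand) has 3 HNF1 cores. Of all 32851 mouse promoters of this length, 8.30% held the STAT core, 0.475% the HNF4 element and 7.10% the HNF1 core, so a match is a description of letters and not of a bound site.
Prlr: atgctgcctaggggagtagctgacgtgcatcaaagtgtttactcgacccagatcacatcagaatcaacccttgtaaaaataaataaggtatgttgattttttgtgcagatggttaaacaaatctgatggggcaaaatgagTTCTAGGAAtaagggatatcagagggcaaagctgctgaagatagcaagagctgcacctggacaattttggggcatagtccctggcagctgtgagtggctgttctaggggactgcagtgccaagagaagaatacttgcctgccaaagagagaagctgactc
Aadat: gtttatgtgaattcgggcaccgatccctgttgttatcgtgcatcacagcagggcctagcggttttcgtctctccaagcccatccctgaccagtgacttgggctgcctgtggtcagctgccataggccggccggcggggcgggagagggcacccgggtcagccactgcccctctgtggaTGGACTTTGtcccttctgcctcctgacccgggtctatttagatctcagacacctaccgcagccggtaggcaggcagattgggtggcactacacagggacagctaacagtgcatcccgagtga
Hao2: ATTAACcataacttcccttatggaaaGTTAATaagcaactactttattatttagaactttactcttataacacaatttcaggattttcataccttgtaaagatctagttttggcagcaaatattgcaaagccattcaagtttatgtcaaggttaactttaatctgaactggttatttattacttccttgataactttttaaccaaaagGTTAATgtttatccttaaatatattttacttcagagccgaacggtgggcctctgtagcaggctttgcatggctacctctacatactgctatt

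The genes lower in PT-S3-2 than in PT-S3-1 included genes of earlier proximal tubule and markers of other cells. Slc5a12 averaged 0.119 in PT-S3-2 and 0.842 in PT-S3-1. Slc12a1, the salt transporter of the thick ascending limb, averaged 0.383 in PT-S3-2 and 2.23 in PT-S3-1, Umod (uromodulin) averaged 0.110 and 0.751, and Egf averaged 0.161 and 1.10, in the same order. The summed level of 8 thick ascending limb markers was 2.06 in PT-S3-2, 5.25 in PT-S3-1, 1.88 in PT-S1 and 65.2 in the TAL cluster. The sum of 10 endothelial markers was 0.151 in PT-S3-2, against 0.690 in PT-S3-1 and 0.169 in PT-S1. The 8 intercalated cell markers summed to 0.0423 in PT-S3-2 and 0.281 in PT-S3-1, and the 8 principal cell markers to 0.0412 in PT-S3-2 and 0.229 in PT-S3-1. PT-S3-2 was lowest of the 17 clusters for both of these sums, and every one of their members was under 0.05 in it.

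Mitochondrial transcripts and those listed as tracers of free RNA were lower in PT-S3-2 than in PT-S3-1 as well. The 13 mitochondrially encoded genes summed to 1.33 in PT-S3-2, the lowest of the 17 clusters, against 5.05 in PT-S3-1, the highest. Other segment clusters lay near PT-S3-2, at 1.35 in PT-S2, 1.36 in PT-S2/S3 and 1.73 in PT-S1. All 10 mitochondrial genes that could be compared were at least 2-fold lower in PT-S3-2 than in PT-S3-1, with a median log2 ratio of -1.91. Against PT-S2/S3, 0 of 8 were higher and 0 lower. Kap, an abundant and androgen-driven proximal tubule transcript listed here with haemoglobins as a tracer of free RNA, averaged 1.74 in PT-S3-2 and 8.03 in PT-S3-1. Of the 5 listed tracers, all 3 that could be compared were at least 2-fold lower in PT-S3-2 than in PT-S3-1. The 5 summed to 1.79 in PT-S3-2 and 8.37 in PT-S3-1. Nearly all of that sum is Kap, so it cannot separate free RNA from the tubule's own expression of Kap. The sum was below that of PT-S3-2 in PT-S2/S3 (1.63), PT-S2 (0.953) and PT-S1 (0.922). PT-S3-1 was also the shallowest of the 5 segment clusters, with 1334913 UMIs. With every gene of these other-cell and quality lists left out, 43 genes were at least 2-fold higher in PT-S3-2 than in PT-S3-1 and 379 lower, and the part of admixture in those 379 was not tested. Of the 407 lower genes, 62.9% had their highest level outside the proximal tubule, close to the 65.7% of all genes compared.

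**Figure D2:**
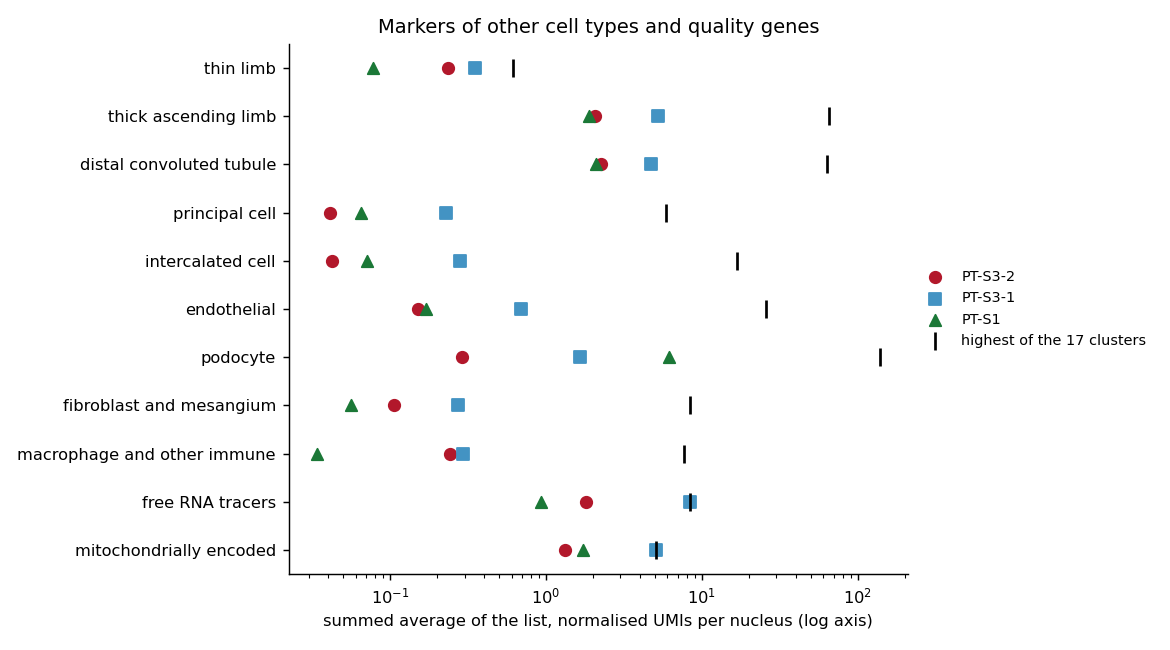
Points give the summed average of each list of other-cell markers or quality genes (normalised UMIs per nucleus, log axis) in PT-S3-2, PT-S3-1 and PT-S1, with a tick at the highest of the 17 clusters. PT-S3-2 lies left of PT-S3-1 for every list drawn, for example at 1.33 against 5.05 for mitochondrially encoded genes.

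Against PT-S2/S3, the cluster next most like it, 252 of 5842 genes (4.31%) were at least 2-fold higher in PT-S3-2 and 250 (4.28%) were lower, 502 (8.59%) in all. All 6 markers were among the higher ones. Cyp7b1 had the ratio 35.96 [32.8 to 39.5] and Slc7a12 the ratio 34.0 [29.6 to 39.2], whereas Slc7a13, already at 2.21 in PT-S2/S3, had the ratio 2.30 [2.23 to 2.37]. Gramd1b, which moves cholesterol from the cell membrane to the endoplasmic reticulum, averaged 15.6 in PT-S3-2, 2.17 in PT-S2/S3 and 8.53 in PT-S3-1. Mettl7a2 averaged 0.913 in PT-S3-2, against 0.0265 in PT-S2/S3. Among the lower genes was Bnc2, a zinc finger factor, at 0.112 in PT-S3-2, against 2.79 in PT-S2/S3. Of 7 second-segment markers compared, 5 were lower in PT-S3-2 and 0 higher, with a median log2 ratio of -3.36 beside 0.02 over all genes compared. Slc34a1, the main phosphate transporter, averaged 0.916 in PT-S3-2, against 9.38 in PT-S2/S3.

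Against PT-S1, at the other end of the tubule, 565 of 5891 genes (9.59%) were at least 2-fold higher in PT-S3-2 and 503 (8.54%) were lower, 1068 (18.1%) in all. Among the largest ratios were genes close to 0 in PT-S1. C8a, a chain of complement factor 8, averaged 0.611 in PT-S3-2 and 0.00111 in PT-S1, a ratio of 550 [188 to 2670] that rests on 3 UMIs in PT-S1. Esr1, the oestrogen receptor alpha, averaged 1.27 in PT-S3-2 and 0.00704 in PT-S1, a ratio of 180 [115 to 300]. Slco4c1, an organic anion transporter, averaged 0.485 in PT-S3-2, against 0.254 in PT-S3-1 and 0.00259 in PT-S1. Among the lowest were Gldc, the glycine decarboxylase, at 0.00823 in PT-S3-2 and 1.17 in PT-S1, and Adra1a, the alpha-1A adrenergic receptor, at 0.0242 in PT-S3-2 and 1.29 in PT-S1. Prodh2, a hydroxyproline dehydrogenase, averaged 0.00933 in PT-S3-2 and 0.603 in PT-S1.

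**Figure D3:**
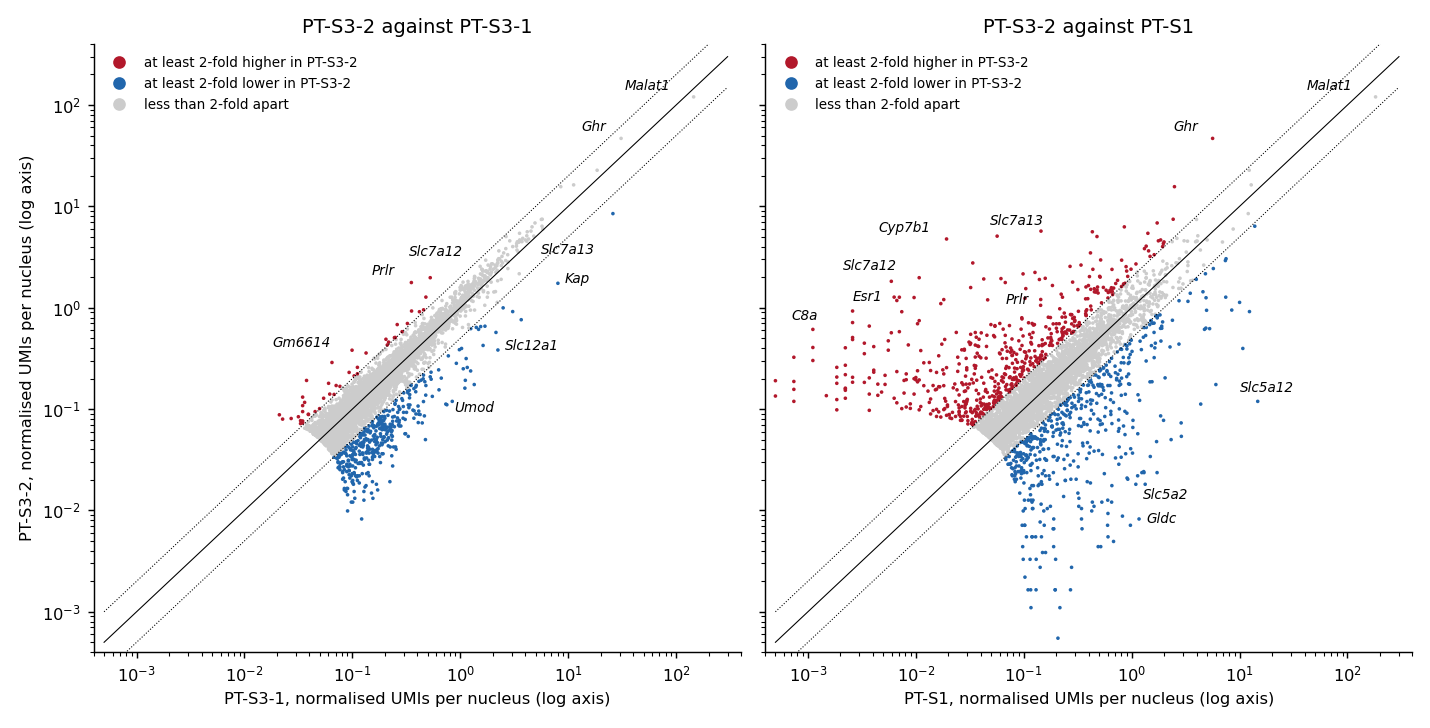
Each point is a gene that could be compared, with its level in PT-S3-2 on the vertical axis and in PT-S3-1 (left) or PT-S1 (right) on the horizontal axis, both in normalised UMIs per nucleus on log axes, and dotted lines at 2-fold. A level of 0 is drawn at the low end of the axis, and in the left panel 44 genes lie above the band and 407 below it, and in the right panel 565 above and 503 below.

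Many genes stepped one way through the 5 segment clusters taken in the order of their names, with PT-S3-2 last. Over 5985 genes compared across PT-S1, PT-S2, PT-S2/S3, PT-S3-1 and PT-S3-2, 523 (8.74%) stepped up at every cluster and 378 (6.32%) stepped down. PT-S3-2 held the highest of the 5 levels for 1630 genes and the lowest for 1340, close to PT-S3-1 with 1536 and 1351, while PT-S1 had the highest for 1395 and the lowest for 1867. Ghr, the growth hormone receptor, stepped up at 5.63, 9.23, 17.5, 30.9 and 46.8 in that order. Gclc, the catalytic subunit of the enzyme that limits glutathione synthesis, stepped up at 0.269, 0.332, 0.609, 1.53 and 2.56. Slc6a19, the neutral amino acid transporter of early tubule, stepped down at 0.907, 0.461, 0.115, 0.0827 and 0.0209. Dab2, an adaptor for endocytosis, stepped down at 10.0, 9.15, 7.04, 2.20 and 1.13. The order of clusters is that of their names. PT-S3-1, with the higher other-cell marker and mitochondrial sums given above, stands next to PT-S3-2 in that order. The part of those sums in the steps was not tested.

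**Figure D4:**
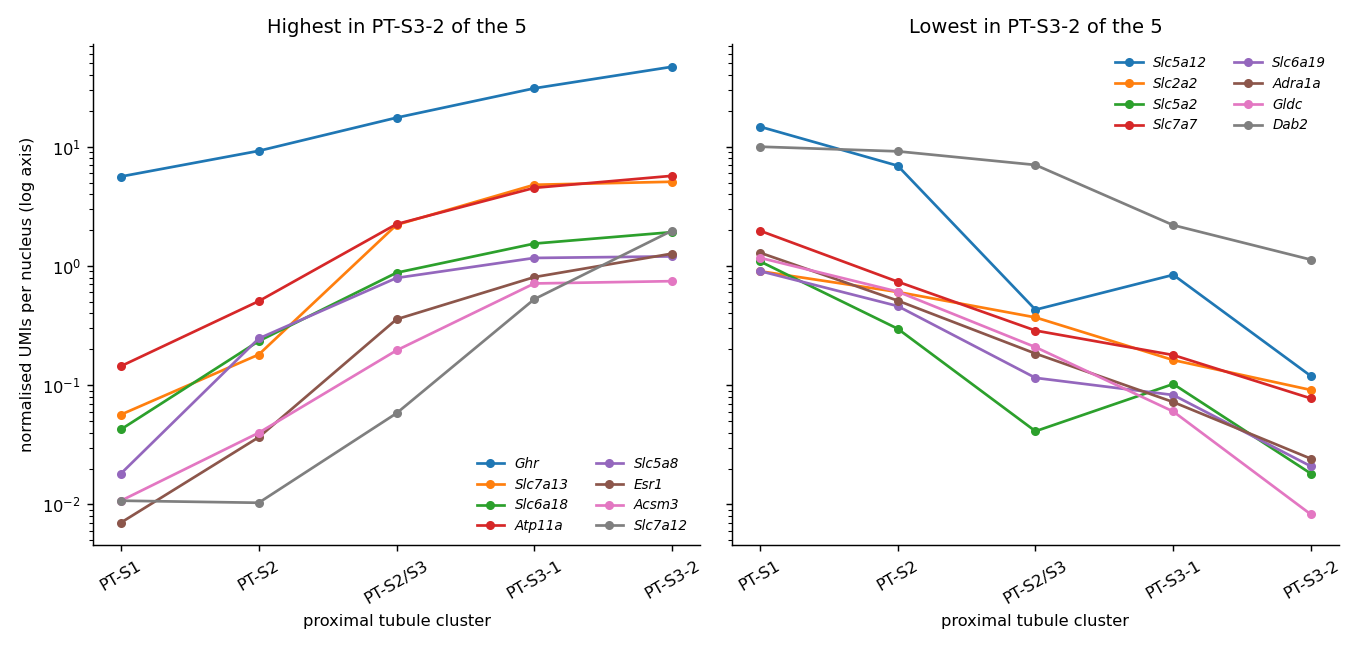
Lines join the level of each gene (normalised UMIs per nucleus, log axis) in the 5 segment clusters, for 8 genes highest in PT-S3-2 of the 5 (left) and 8 lowest in it (right). Ghr reaches 46.8 in PT-S3-2, while Slc5a12 drops to 0.119 there with a level of 0.842 in PT-S3-1.

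Over all genes compared with PT-S1, 9.59% were at least 2-fold higher in PT-S3-2 and 8.54% lower, and over those compared with PT-S3-1, 0.719% and 6.65%. Of 23 amino acid transporter genes, 11 were highest of the 17 clusters in PT-S3-2, beside 9.51% of all genes ranked. The summed level of the 23 was highest there, at 18.7. The list holds the marker Slc7a12, so neither value is separate from the markers. Of 21 compared with PT-S1, 11 were at least 2-fold higher in PT-S3-2 and 8 lower, with a median log2 ratio of 1.03 and a mean of 0.28. The higher ones included Slc6a18, a glycine transporter of late tubule, at 1.92 in PT-S3-2 and 0.0426 in PT-S1, and Slc3a1, the heavy chain that pairs with Slc7a13, at 1.40 in PT-S3-2 and 0.489 in PT-S1. Slc38a3, a glutamine transporter, averaged 0.158 in PT-S3-2 and 0.00222 in PT-S1. The lower ones included the basolateral exchangers Slc7a7, at 0.0774 in PT-S3-2 and 1.98 in PT-S1, and Slc7a8, at 0.0236 in PT-S3-2 and 1.72 in PT-S1. Against PT-S3-1, 1 of 19 was higher in PT-S3-2 (Slc7a12) and 4 were lower.

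Of 29 genes for glucose, phosphate, carboxylate and water transport, 8 were at least 2-fold higher in PT-S3-2 than in PT-S1 and 13 lower, and their summed level was 15.1 in PT-S3-2 and 50.8 in PT-S1, the highest. Against PT-S3-1, 0 of 26 were higher and 4 lower. Slc34a1 averaged 0.916 in PT-S3-2 and 12.4 in PT-S1, and the glucose exporter Slc2a2 averaged 0.0911 in PT-S3-2 and 0.904 in PT-S1. Slc16a9, a carnitine and monocarboxylate carrier, was among the higher ones, at 1.79 in PT-S3-2 and 0.284 in PT-S1. Of 22 organic anion and cation transporter genes, 8 were higher in PT-S3-2 than in PT-S1 and 5 lower, beside 9.59% and 8.54% of all genes. Against PT-S3-1, 0 of 24 were higher and 3 lower, and the summed level was 21.7 in PT-S3-2 and highest in PT-S2/S3, at 23.3. Slc22a6 and Slc22a8, the basolateral anion transporters of the second segment, averaged 0.0478 and 0.0329 in PT-S3-2, against 0.512 and 0.677 in PT-S2/S3. Slc22a19, an organic anion transporter of late tubule, averaged 0.402 in PT-S3-2 and 0.00222 in PT-S1. Slc22a2, a cation transporter that carries cisplatin into cells, averaged 0.569 in PT-S3-2, its highest level, 0.390 in PT-S3-1 and 0.122 in PT-S1. Of 10 platinum uptake and efflux genes compared with PT-S1, 2 were higher in PT-S3-2 and 1 lower, beside 9.59% and 8.54% of all genes. Against PT-S3-1, 0 of 11 were higher and 0 lower. That list's summed level was highest in PT-S3-2, at 10.4, with 9.67 in PT-S2/S3 and 8.65 in PT-S3-1. Of 11 endocytic receptor genes, 2 were lower in PT-S3-2 than in PT-S1 and 0 higher, and the megalin gene Lrp2 averaged 4.67 in PT-S3-2 and 5.00 in PT-S1.

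Among enzymes, the oxysterol, bile acid and steroid list stood higher in PT-S3-2 than in PT-S1 for 8 of 16 genes and lower for 1. Over all genes these shares were 9.59% and 8.54%. The median log2 ratio of the list was 1.28, beside 0.04 over all genes compared. Against PT-S3-1, 0 of 16 were at least 2-fold higher and 0 lower, with a median of 0.17. Akr1d1, a steroid 5-beta-reductase, averaged 0.665 in PT-S3-2, against 0.385 in PT-S3-1 and 0.0541 in PT-S1, and Hsd17b2, which oxidises oestradiol and testosterone, averaged 0.271, 0.176 and 0.00222 in that order. The summed level of this list was highest of the 17 clusters in PT-S3-2, at 18.1 against 14.7 in PT-S3-1. Of 38 genes of fatty acid oxidation and the peroxisome, 12 were higher in PT-S3-2 than in PT-S1 and 4 lower, beside 9.59% and 8.54% of all genes. The summed level was 20.8 in PT-S3-2 and highest in PT-S2/S3, at 21.4. Slc27a2, a very-long-chain acyl-CoA synthetase, averaged 6.86 in PT-S3-2, against 4.92 in PT-S3-1 and 1.72 in PT-S1. Against PT-S3-1, Hao2 was the 1 gene of that list at least 2-fold higher in PT-S3-2, and 0 were lower.

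The enzymes that build glutathione, a thiol that binds platinum and peroxides, were highest of the 17 clusters in PT-S3-2. Gclm, the modifier subunit beside Gclc, averaged 0.806 in PT-S3-2, against 0.623 in PT-S3-1 and 0.169 in PT-S1, and Gss, the synthetase of the last step, averaged 0.976, 0.662 and 0.216 in that order. Over the glutathione and metallothionein list, 6 of 13 genes were higher in PT-S3-2 than in PT-S1 and 2 lower, beside 9.59% and 8.54% of all genes. Against PT-S3-1, 0 of 14 were higher and 4 lower, and the list's summed level was 7.01 in PT-S3-2 and highest in PT-S3-1, at 7.76. Amino acid breakdown and gluconeogenesis had 8 genes higher in PT-S3-2 than in PT-S1 and 10 lower, of 31, with G6pc (glucose 6-phosphatase) at 0.0774 in PT-S3-2 and 1.03 in PT-S1. Kynu, which cleaves kynurenine, averaged 0.0390 in PT-S3-2 and 0.494 in PT-S1, while Haao, further down the same route, averaged 0.281 in PT-S3-2 and 0.121 in PT-S1. Of 25 cytochrome P450 and related genes, 9 were higher in PT-S3-2 than in PT-S1 and 6 lower, beside 9.59% and 8.54% of all genes. Against PT-S3-1, 1 of 25 was higher and 4 lower, and the summed level was 15.2 in PT-S3-2 and highest in PT-S2/S3, at 16.6. Cyp4b1 averaged 0.657 in PT-S3-2 against 4.66 in PT-S2/S3, and Cyp2e1 averaged 0.0346 against 0.496.

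Receptors for hormones summed to 65.0 in PT-S3-2, the highest of the 17 clusters, a sum that includes Ghr at 46.8. Of 22 compared with PT-S1, 8 were higher in PT-S3-2 and 4 lower, beside 9.59% and 8.54% of all genes, and of 22 compared with PT-S3-1, 1 was higher and 1 lower. Thrb, a thyroid hormone receptor, averaged 3.83 in PT-S3-2 and 1.31 in PT-S1. Both Ghr and Prlr signal through Jak2 and Stat5. Jak2 averaged 0.148 in PT-S3-2, against 0.114 for PT-S3-1 and 0.0737 for PT-S1, and Stat5b averaged 0.569, 0.478 and 0.280 in that order. Of the 12 genes listed for this signalling, 4 were compared with PT-S1, with 2 higher in PT-S3-2 and 0 lower. Of 5 compared with PT-S3-1, 0 were higher and 0 lower. The list's summed level was 1.13 in PT-S3-2, rank 10 of the 17 clusters, and highest in the immune cluster, at 2.42. Cish and Socs2, which STAT5 induces, averaged 0.0307 each in PT-S3-2, under the level used for comparisons. Of 28 proximal tubule transcription factors, 2 were at least 2-fold higher in PT-S3-2 than in PT-S1 and 9 lower, beside 9.59% and 8.54% of all genes, with a median log2 ratio of -0.34. Against PT-S3-1, 0 of 25 were higher and 2 lower. Hnf4a averaged 1.25 in PT-S3-2 and 1.05 in PT-S1, while Bnc2 averaged 0.112 in PT-S3-2 and 4.37 in PT-S1.

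The study compared cisplatin-treated with untreated kidneys, and a second table gives the averages of all proximal tubule nuclei pooled per group, with 8557663 UMIs in Cis9w and 5123727 in CT9w. It does not split the nuclei by cluster, was scaled apart from the cluster table, and has 1 pool a group, so its ratios have no replicate check. Fewer PT-S3-2 nuclei and less of a transcript in each nucleus cannot be told apart in such pools. Of 6967 genes compared, 102 (1.46%) were at least 2-fold higher in Cis9w and 115 (1.65%) lower, 217 (3.11%) in all. Whether the pools hold the same nuclei as the clusters is not stated in the labels or headers. The markers split as they had between the S3 clusters. Prlr averaged 0.713 in Cis9w and 0.112 in CT9w, a ratio of 6.34 [5.49 to 7.35]. Slc7a12 averaged 0.767 in Cis9w and 0.129 in CT9w, a ratio of 5.93 [5.18 to 6.80]. Cyp7b1 averaged 0.388 in Cis9w and 2.43 in CT9w, a ratio of 0.159 [0.149 to 0.170]. Slc7a13 averaged 1.17 in Cis9w and 4.07 in CT9w, Acsm3 0.131 and 0.524, and Aadat 0.612 and 1.06, in that order. Of the 4 markers that PT-S3-2 shares with PT-S3-1, 3 were thus at least 2-fold lower in Cis9w and Aadat less than 2-fold lower, while the pair that separates it from PT-S3-1 was at least 2-fold higher.

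**Figure D5:**
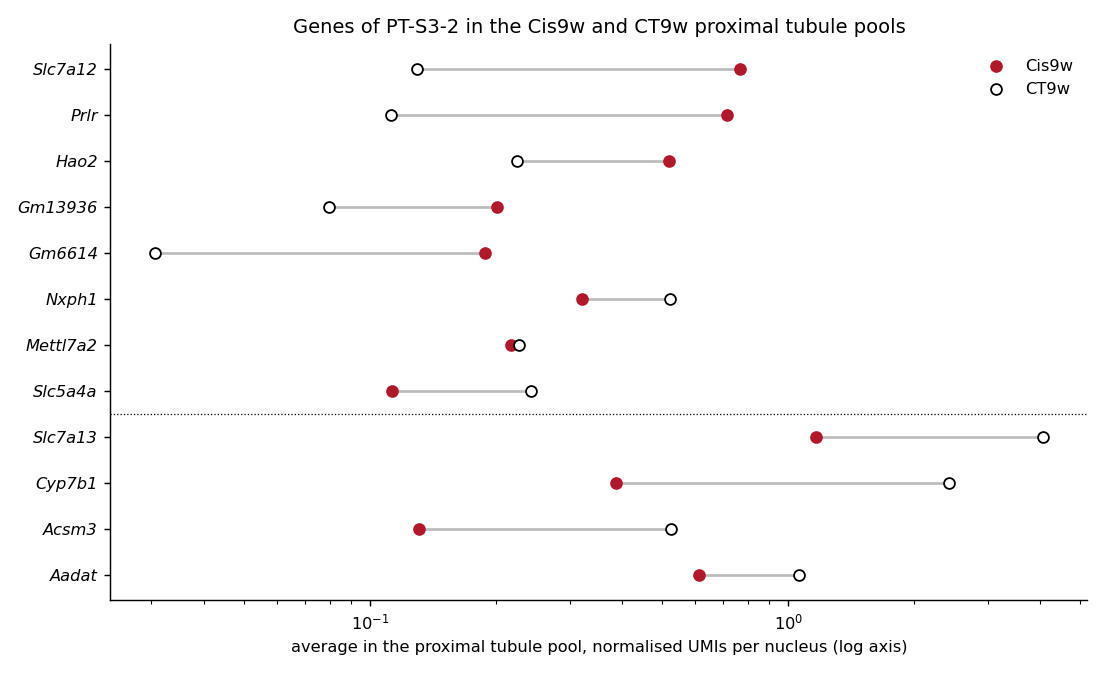
Filled points give the average in the Cis9w pool and open points that in the CT9w pool (normalised UMIs per nucleus, log axis) for 8 genes that lead PT-S3-2 (above the dotted line) and 4 markers it shares with PT-S3-1 (below it). Prlr and Slc7a12 lie higher in Cis9w, at 0.713 against 0.112 and 0.767 against 0.129, and the 4 shared markers lie lower in Cis9w.

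The wider gene sets went different ways between the pools, where 1.46% of all genes compared were at least 2-fold higher in Cis9w and 1.65% lower. Of the 44 genes at least 2-fold higher in PT-S3-2 than in PT-S3-1, 35 could be compared between the pools, of which 11 (31.4%) were higher in Cis9w, 1 was lower (Slc5a4a, 0.113 in Cis9w and 0.243 in CT9w) and 23 were less than 2-fold apart. Beside Prlr and Slc7a12, the 11 held Gm6614 (0.188 in Cis9w, 0.0306 in CT9w), the fatty acid hydroxylase Cyp4a14 (0.128 and 0.0218), Hao2 (0.517 and 0.225) and Gm13936 (0.202 and 0.0797). They also held Cdh6 (0.331 in Cis9w, 0.0480 in CT9w) and the growth factor Nrg1 (1.55 in Cis9w, 0.621 in CT9w), whose levels in the cluster table were highest in PT-injury/repair, at 1.67 and 2.41. The rest were Dscaml1, Rdh16f2 and 1700042O10Rik. Of 254 genes at least 4-fold higher in PT-S3-2 than in PT-S1, 239 could be compared, of which 10 were higher in Cis9w and 64 (26.8%) lower, with a median log2 ratio of -0.52 beside 0.02 over all genes. With those 2-fold or more above PT-S3-1 set aside, 2 of 220 were higher and 63 lower. Of 230 genes at least 4-fold lower in PT-S3-2 than in PT-S1, 15 (6.52%) were higher in Cis9w. Another 4 (1.74%) were lower, near the 1.65% of all genes.

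Of the 31 genes that lead PT-S3-2 among proximal tubule clusters, 16 could be compared. Of these, 5 were higher in Cis9w, 1 lower and 10 less than 2-fold apart, with a median log2 ratio of -0.14. Over all genes compared between the pools, 1.46% were higher and 1.65% lower. Of 79 compared that were at least 1.5-fold above the next, 5 were higher, 7 lower and 67 less than 2-fold apart, with a median of -0.30. Nxph1 averaged 0.321 in Cis9w and 0.522 in CT9w, Mettl7a2 0.217 and 0.228, and Tox 0.174 and 0.220, in that order, so a high level in PT-S3-2 did not go with one direction between the pools. Injured-tubule markers differed between the pools too. All 5 injured-tubule markers that could be compared were at least 2-fold higher in Cis9w, beside 1.46% of all genes. Havcr1 averaged 0.0579 in Cis9w and 0.00109 in CT9w. Their part in the ratios of PT-S3-2 genes was not tested. Among the 6 genes of a list known for higher levels in female mouse kidney, all 6 were at least 2-fold higher in Cis9w. Of 13 known for higher levels in males, 7 were lower in Cis9w and 0 higher, beside 1.65% and 1.46% of all genes. That list of female-biased genes holds Prlr and Slc7a12, and the male-biased one Slc7a13, Cyp7b1 and Acsm3, so neither count is separate from the markers. Slco1a1, an androgen-dependent transporter, averaged 0.0141 in Cis9w and 0.377 in CT9w. In the cluster table, 4 of the 7 female-biased genes compared were at least 2-fold higher in PT-S3-2 than in PT-S3-1 and 1 lower. The summed level of the 8 was 4.797 in PT-S3-2, the highest of the 17, and 1.503 in PT-S3-1. Prlr and Slc7a12 are among those 4 genes and make up most of the sum in PT-S3-2. Neither the count nor the rank of the sum is thus separate from the markers, and the rank without this pair was not tested.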

How the data were processed

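Nuclei were counted with Cell Ranger 5.0.1 on the mouse build mm10, per the submitters' processing notes. How nuclei were clustered and filtered, and how doublets and free RNA were treated, is not stated in the labels or headers. The deposited values used are averages of normalised UMIs per nucleus, a signal the authors scaled to the same sum for every column, 2008 per cluster and 2797 per proximal tubule pool, per the file headers and the values. Every column is a pool of nuclei, and no source used here says which samples entered. The deposited fold changes and p-values were not used.

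UMI sums were recovered from the step between low values, within 0.1 UMI for 100% of values in each cluster column and for 99.9953% in each pool column. No count test was run on them, and so 0 genes were called by one, because a test needs a spread between samples and each group is 1 pool. Each ratio has a 95% Clopper-Pearson interval from the UMI sums, and a 0 was set to 3 UMIs over the pool. Genes entered a comparison at a mean average of 0.05, and were called from 2-fold on. Likeness was Pearson's r of log2(average + 0.01). Settings were recomputed as the closing section gives, and the scripts were tested on simulated data.

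The cluster, its members and the 34 gene lists were chosen with earlier results of these data known. Genes named are the 12 highest and 12 lowest ratios over PT-S3-1 and over PT-S1 (higher average at least 0.2), the 15 with the largest margin over the next of 17 and of 6 clusters, the 10 highest averages, the 6 markers and up to 4 per list and direction, of which those needed are printed. Other genes named, among them Cyp4a14, Cdh6, Nrg1, Dscaml1, Rdh16f2 and the Vmn1r genes, were chosen after their values were seen. GENCODE M21 held 24449 of the 24468 gene IDs of the clusters and 21298 of the 21312 of the pools. For 16 symbols carried by more than 1 ID, the first ID was taken. Promoters came from RefSeq for 5 of 8 genes looked up. Python 3.11.15, numpy 2.4.6, pandas 2.3.3, scipy 1.17.1 and matplotlib 3.10.9 were used.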

Additional observations from a re-analysis of the deposited data

How the results depend on the processing

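Counts of genes follow the floor and the fold. Against PT-S3-1, 451 genes were at least 2-fold apart either way. There were 927 with a floor of 0.02, 88 with a floor of 0.2, 6037 with none, 929 from 1.5-fold on, 118 from 4-fold on and 239 with 0.05 added to both averages. Against PT-S1, 1068 genes were called, and 1617, 500 and 7211 with those floors, 1802 from 1.5-fold on and 487 from 4-fold on. Genes at least 2-fold above the next of 17 clusters numbered 23. They were 85 at 1.5-fold, 693 at any margin, 11 with a floor of 0.2, 8 with 0.05 added and 140 without PT-S3-1, a setting chosen after seeing the data. Among the 6 proximal tubule clusters, 31 became 112, 1297, 14, 8 and 211 under the same settings. Genes that step one way through the 5 segment clusters numbered 901, and 456 with a floor of 0.2. With 1 cluster left out (settings chosen after seeing the data), they numbered 2077 without PT-S3-1, 1475 without PT-S2/S3, 1353 without PT-S1 and 1290 without PT-S2. Leaving out any cluster cannot lower the number. Between the pools, 6 leading genes were called, and 10 with a floor of 0.02 (8 higher in Cis9w, 2 lower), 12 among genes 1.5-fold above the next (5 higher, 7 lower) and 12 among genes 2-fold above PT-S3-1 (11 higher, 1 lower). The likeness to PT-S3-1 and the number of lists whose median log2 ratio passed 1 moved little. The sign of some list medians did turn. With a floor of 0.02 the injured-tubule list over PT-S3-1 was at -0.85 against 0.63 on the log2 scale, and the male-biased list over PT-S1, at a median of -0.10, had a mean of 1.27. The amino acid transporter list over PT-S3-1, at a median of 0.29, had a mean of -0.08, and over PT-S1 its median of 1.03 stood beside a mean of 0.28. Of the genes named, 4930414F18Rik and Ror2 no longer reached 2-fold over PT-S3-1 with 0.05 added, at log2 ratios of 0.97 and 0.93.

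No paired analysis was possible because the columns carry no sample or replicate number, and none was left out in turn for the same reason. Depth limits low genes most in PT-S3-1, where 3 UMIs are 0.00451 normalised UMIs per nucleus, against 0.00165 in PT-S3-2.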

Other observations

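A run of neighbouring genes on chromosome 6 was among the most strongly graded toward PT-S3-2. Vmn1r18, annotated as a vomeronasal receptor gene of the kind known from pheromone sensing, averaged 1.82 in PT-S3-2, 1.34 in PT-S3-1, 1.25 in PT-S2/S3, 0.257 in PT-S2 and 0.00593 in PT-S1. Its neighbour Vmn1r20 averaged 0.447 in PT-S3-2 and 0.00333 in PT-S1, and Vmn1r19, between them, averaged 0.134 in PT-S3-2 and was listed at 0 in PT-S1. The antisense gene 4930533I22Rik, on the same stretch, averaged 1.27 in PT-S3-2 and 0.00630 in PT-S1. The 4 genes lie between 57376660 and 57497671 of chromosome 6 (GRCm38). Whether reads of 1 transcript were counted under several of these annotations was not tested. In the proximal tubule pools all of them were lower in Cis9w, Vmn1r18 at 0.607 against 1.81 in CT9w and Vmn1r20 at 0.143 against 0.443. Vmn1r184, on chromosome 7, averaged 0.0944 in PT-S3-2 and 0.0346 in PT-S3-1.

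Csf1r, the receptor of macrophage colony-stimulating factor, averaged 0.207 in PT-S3-2, 0.215 in PT-S3-1, 0.0146 in PT-S2/S3 and 0.00185 in PT-S1, against 0.547 in the immune cluster. The other immune markers did not go with it, with 9 of 10 under 0.05 in PT-S3-2. Ptprc (CD45) averaged 0.00220 in PT-S3-2 and 3.42 in the immune cluster, and Adgre1 (F4/80) 0.00110 and 1.14, in that order. In the proximal tubule pools Csf1r averaged 0.0471 in Cis9w and 0.0950 in CT9w.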
